A study of Homo sapiens with 4 samples.

Results

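The genes described here are 32 glycolysis and hypoxia-responsive genes, chosen by name from a list of glucose transporters, glycolytic enzymes and textbook targets of hypoxia-inducible factors (HIF). Of the 32, 31 had a probe set that named the gene alone, and 29 of those reached the median of all array values, 6.19 log2, on at least 1 array. The whole array named 19775 genes, of which 13410 reached that level. The expression of CA9, the hypoxia-induced carbonic anhydrase, was not analysed here. ENO2, the neuronal enolase, ran from 5.52 to 5.73 log2 and EGLN3, a HIF prolyl hydroxylase, from 5.76 to 6.04 log2 over the 4 arrays. Both stayed under that level throughout.

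The cells were THP-1, an established human line from an acute monocytic leukaemia, and each of 4 conditions was measured on 1 Affymetrix array. The first condition was resting cells with no treatment, and the second was cells treated with Pam3CSK4, a synthetic lipopeptide ligand of the receptor pair TLR1 and TLR2. The third and the fourth were Pam3CSK4-treated cells kept for 12 h or 24 h in co-culture with platelet-like particles; the cell source of the particles and the length of the Pam3CSK4 treatment are not given in the sources used here. There were no replicates, so no difference below could be set against a spread between cultures and none was tested.

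Values are log2 expression values, so a difference of 1 is 2-fold. Where several probe sets read a gene, the probe set of highest mean stands for it, and the range over its other probe sets above 6.19 is given as the available measure of precision. In RNA from a whole culture, fewer cells of a type and less RNA per cell cannot be told apart. All 7 monocyte markers with a named probe set were above 6.19 on every array, among them LYZ, CSF1R and ITGAM. Their summed linear signal was 9481 in resting cells, 18053 with Pam3CSK4, 15947 after 12 h and 19842 after 24 h. RNA integrity was read from control probe sets alone. The GAPDH control probe set at the 3' end exceeded the set at the 5' end by 2.16 log2 in resting cells, by 0.59 in Pam3CSK4-treated cells, and by 0.92 and 0.70 after 12 h and 24 h of co-culture. For beta-actin (ACTB) the same gap was 3.41, 2.91, 3.17 and 2.90 log2 in that order, so it was widest in resting cells for both transcripts.

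Glycolysis splits glucose into pyruvate, and lactate dehydrogenase turns pyruvate into lactate when it is not burned in mitochondria. HIF is a transcription factor whose alpha subunits, HIF-1α and HIF-2α, are marked for destruction by the oxygen-dependent EGLN hydroxylases and the VHL ligase, and are stable when oxygen is low. It drives most genes of the glycolytic chain along with genes for vessel growth, mitophagy and collagen modification. In monocytes and macrophages, signals through Toll-like receptors are also known to engage HIF-1α and to favour glycolysis while oxygen is plentiful.

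With Pam3CSK4, 4 of the 29 measured genes were at least 2-fold higher than on the resting array, namely BHLHE40, PKM, VEGFA and BNIP3L, and 0 were at least 2-fold lower. The shares over all 13410 genes were 4.14% for higher and 1.71% for lower. The median difference of the 29 was 0.21 log2, against -0.05 for all genes, and 19 of the 29 were above 0, against 42.2% of all genes. Of the 18 measured genes of the chain from glucose transport to lactate, PKM was the 1 past 2-fold. Of 7 monocyte markers, 3 were at least 2-fold higher in the same comparison. They were CYBB, a subunit of the phagocyte oxidase, at 4.61 log2, the lipopolysaccharide coreceptor CD14 at 2.40 and the integrin ITGAM at 2.20. On their other probe sets CYBB was at 2.67 and ITGAM at -0.19. Of the 7, 6 were above 0, and the Fc receptor gene FCGR2A was at -0.42. The part of these markers in the members' differences was not tested. The cumulative plot of differences shows the same shift of the 29 genes to the right of all genes.

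**Figure D1:**
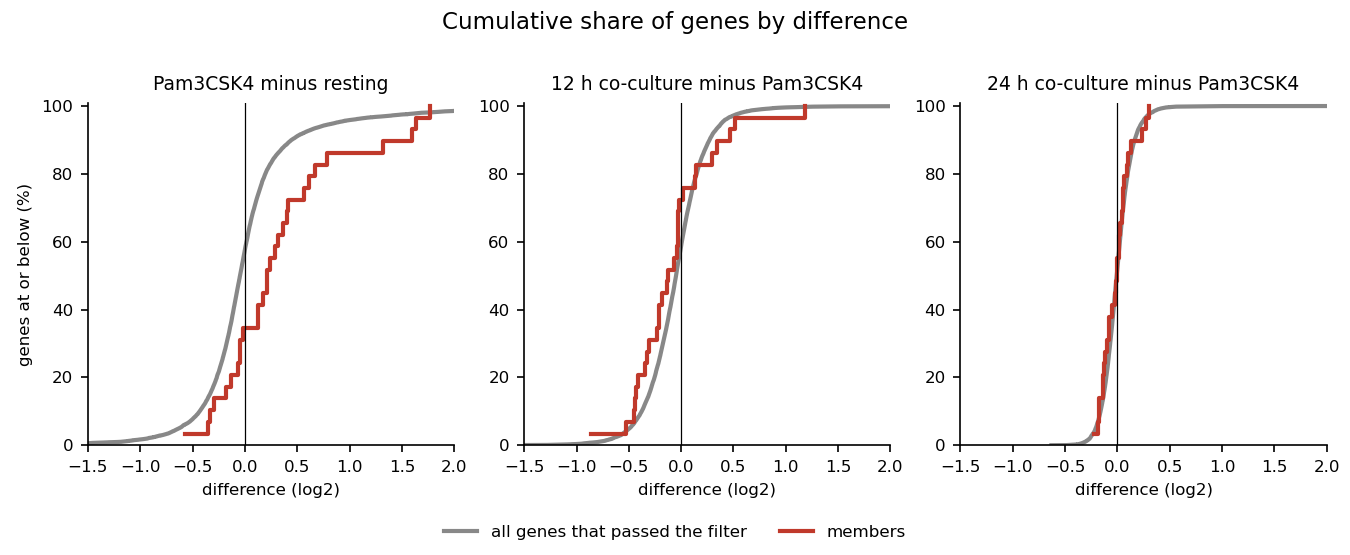
Cumulative share of genes, in percent, by their log2 difference in each of 3 comparisons, for the 29 measured glycolysis and hypoxia-responsive genes (red) and all 13410 genes (grey). The red line lies right of the grey for Pam3CSK4 against resting (medians 0.21 and -0.05), left of it over most of its lower part at 12 h (medians -0.13 and -0.05), and on it at 24 h (medians -0.0028 and -0.0062).

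Glucose enters the cell through facilitative transporters, and the 2 listed here differed in opposite directions with Pam3CSK4. SLC2A3, which encodes the high-affinity transporter GLUT3, was at 6.32 log2 in resting cells, 7.11 with Pam3CSK4, 7.04 after 12 h and 7.13 after 24 h. The resting array was thus the low one and the 3 stimulated arrays were close together. Its difference with Pam3CSK4 was 0.79 log2 on this probe set and 1.65 on the other above the filter, which started from 5.50. A pair of further probe sets that also read the near-identical SLC2A14 differed by 0.34 and -0.06, so the size for GLUT3 is uncertain. SLC2A1, the basal transporter GLUT1, went the other way, at 8.99, 8.65, 8.23 and 8.47 log2 in the same order, and was highest on the resting array.

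The steps from glucose to triose phosphate are run by hexokinase, phosphoglucose isomerase, phosphofructokinase, aldolase and triosephosphate isomerase. With Pam3CSK4, 5 of these 8 genes were above 0 and 3 below, between -0.30 for PFKP, the platelet-type phosphofructokinase, and 0.61 for HK1, the housekeeping hexokinase. HK1 was at 9.81 log2 in resting cells, 10.42 with Pam3CSK4, 10.19 after 12 h and 10.45 after 24 h, so that again the resting array was lowest. HK2, the inducible hexokinase, differed by 0.40, but its 3 probe sets ran from -0.12 to 0.40. GPI, the isomerase, stood at -0.02, PFKL, the liver-type phosphofructokinase, at 0.21, and the aldolase genes ALDOA and ALDOC at 0.24 and -0.05. TPI1, the triosephosphate isomerase, stood at 0.21, with a low probe set at -0.69. The bifunctional regulators PFKFB3 and PFKFB4, which set the level of the phosphofructokinase activator fructose 2,6-bisphosphate, stood at 0.13 and -0.18.

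From triose phosphate to lactate, the gene that stood out was PKM, which encodes the pyruvate kinase of most tissues and makes pyruvate in the last step of glycolysis. PKM was at 8.20 log2 in resting cells, 9.83 with Pam3CSK4, 9.62 after 12 h and 9.61 after 24 h. The resting array lay far below the 3 stimulated arrays, which differed from each other by little. The difference with Pam3CSK4 was 1.64 log2, or 3.11-fold, on both of its probe sets. The other measured enzymes of this stretch differed by far less: GAPDH by 0.32, the phosphoglycerate kinase PGK1 by 0.18, the enolase ENO1 by 0.13, LDHA, a subunit of lactate dehydrogenase, by -0.05 and the mutase PGAM1 by -0.07. PGK1 ran from 0.18 to 0.80 and ENO1 from 0.13 to 0.88 over their probe sets. The choice of probe set therefore moved ENO1 and PGK1 by more than most genes of the chain differed.

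The control probe sets of GAPDH read the same transcript at its 3' end, middle and 5' end. Between the Pam3CSK4 and resting arrays they differed by 0.03, 0.60 and 1.60 log2 in that order, so a single transcript gave a value as large as that of PKM at its 5' end and almost none at its 3' end. The part of RNA integrity in the differences of PKM, VEGFA, BNIP3L, BHLHE40 and the other genes against the resting array was not tested. Over the 15 genes read by several probe sets above the filter, 12 kept a single sign over them in this comparison, with a median range of 0.52 log2. The plot of probe sets shows how far they spread.

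**Figure D2:**
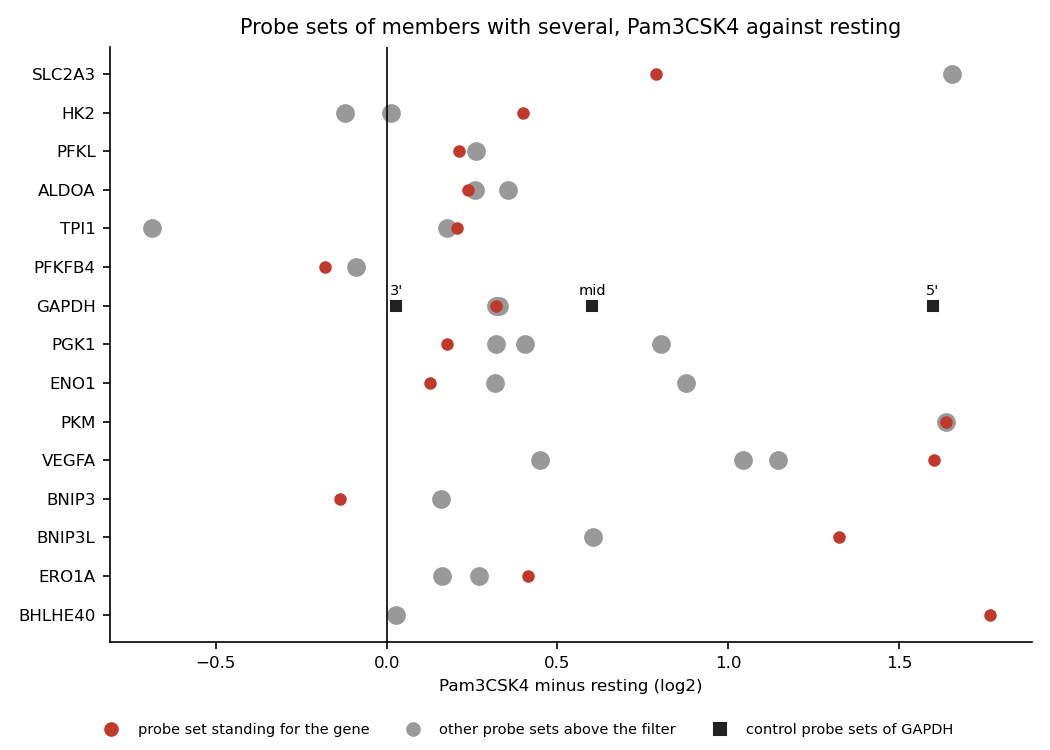
Log2 difference of Pam3CSK4 minus resting for each probe set above the filter, for the 15 genes read by several (rows). Red points are the probe sets standing for the gene, grey points the others and black squares the 3', middle and 5' control probe sets of GAPDH; PKM holds 2 points at 1.64, while BHLHE40 spans 0.03 to 1.77 and the GAPDH controls 0.03 to 1.60.

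PDK1 encodes a kinase that switches off pyruvate dehydrogenase and so keeps pyruvate out of the mitochondrial cycle. It was at 8.33 log2 in resting cells, 7.76 with Pam3CSK4, 7.24 after 12 h and 8.03 after 24 h. The 12 h array was the lowest and the resting array the highest. PDK1 thus differed by -0.57 with Pam3CSK4, by -0.52 at 12 h against Pam3CSK4 and by 0.27 at 24 h, on the 1 probe set above the filter. Its fold between the co-culture arrays was 1.74, higher at 24 h.

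Among secreted and surface products of hypoxia, VEGFA, the main growth factor of blood vessels, was at 9.58 log2 in resting cells, 11.18 with Pam3CSK4, 11.32 after 12 h and 11.28 after 24 h. The 3 stimulated arrays lay together and the resting array below them. The difference with Pam3CSK4 was 1.60 log2, or 3.03-fold, and ran from 0.45 to 1.60 over 4 probe sets, all above 0. NDRG1, a stress-induced gene linked to differentiation, was at 9.37, 10.05, 9.18 and 9.97 log2 in the same order, so that the 12 h array resembled the resting array and the 24 h array the Pam3CSK4 array. ADM, which encodes the vasodilator peptide adrenomedullin, was at 5.39, 5.68, 6.20 and 5.68 log2. Only its 12 h value reached the filter level, and ADM was counted as measured through that array, where it was highest.

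The mitophagy receptors BNIP3 and BNIP3L mark mitochondria for removal. BNIP3L was at 9.41 log2 in resting cells, 10.74 with Pam3CSK4, 10.29 after 12 h and 10.72 after 24 h, lowest in resting cells. Its difference with Pam3CSK4 was 1.32, or 2.50-fold, on this probe set and 0.60 on its other, which alone is under 2-fold. BNIP3 was at 9.68, 9.55, 9.11 and 9.68 log2, with the 12 h array below the other 3. BNIP3 differed by -0.14 with Pam3CSK4, and by 0.16 on its other probe set.

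BHLHE40 encodes a repressor of the basic helix-loop-helix family that answers to hypoxia, cytokines and the circadian clock. It was at 7.14 log2 in resting cells, 8.90 with Pam3CSK4, 10.09 after 12 h and 9.14 after 24 h. The 12 h array was the highest and the resting array the lowest. The difference was 1.77 log2, or 3.40-fold, with Pam3CSK4, and a further 1.18, or 2.27-fold, at 12 h against Pam3CSK4. Its other probe set lay between 6.02 and 6.28 log2, at the filter level, and differed by 0.03 and 0.13, so the finding rests on 1 probe set. ANKRD37, an ankyrin-repeat gene known as a HIF target, had the same order of arrays, at 5.88, 6.45, 6.91 and 6.51 log2, and its resting value was under the filter level. Of the remaining intracellular targets, P4HA1, a subunit of the collagen prolyl hydroxylase, differed by 0.36 with Pam3CSK4, the oxidase ERO1A, which forms disulphide bonds in the endoplasmic reticulum, by 0.41, and the histone demethylase KDM3A by -0.35.

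**Figure D3:**
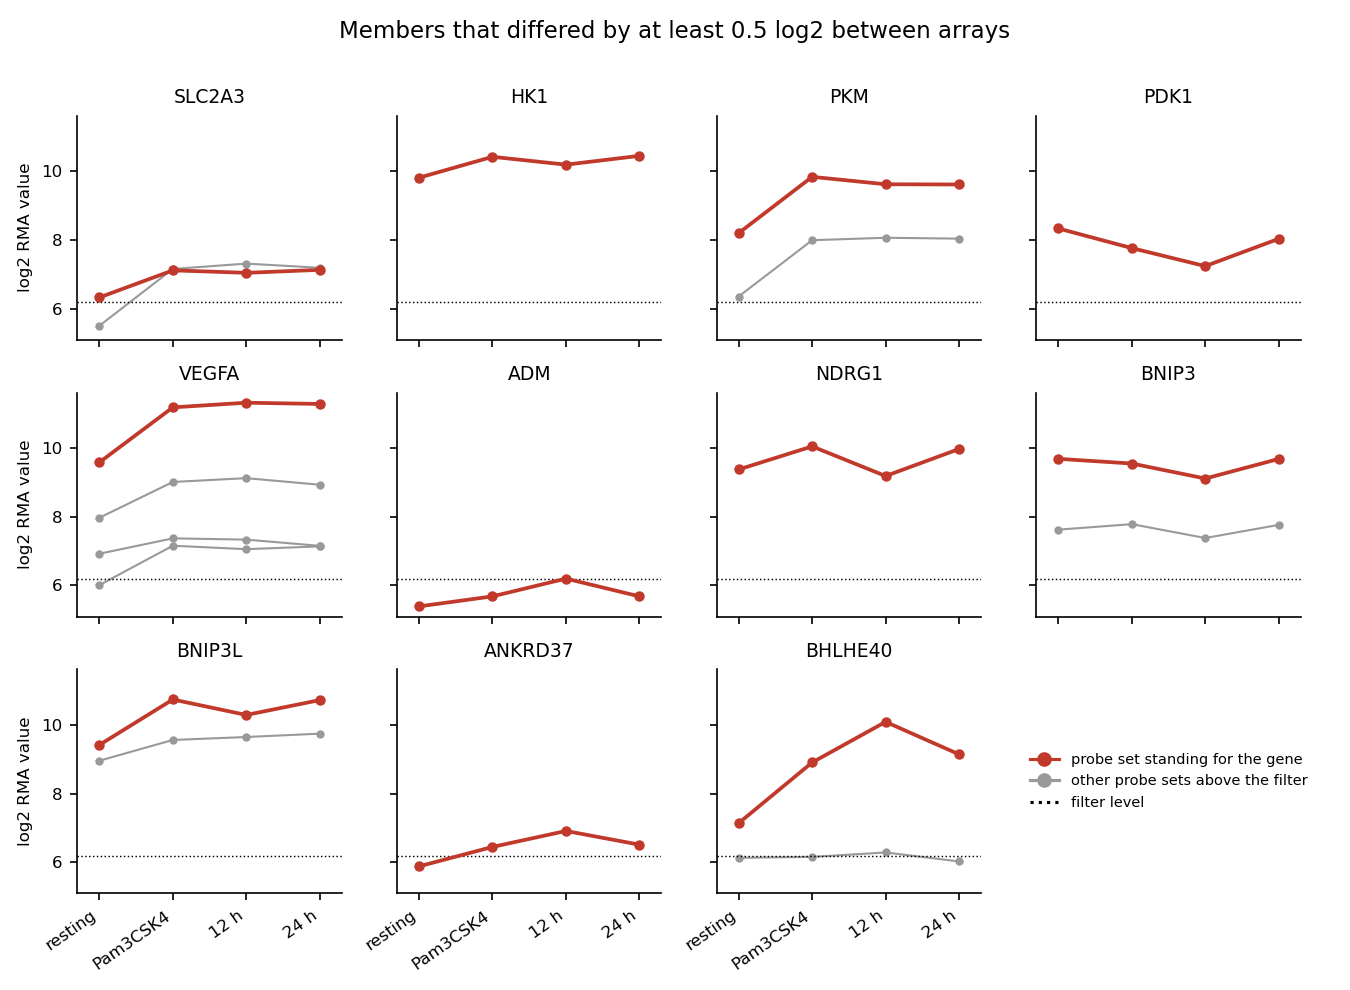
Log2 value on each of the 4 arrays (1 array per condition, no error bars) for the 11 genes that differed by at least 0.5 log2 in any comparison; red is the probe set standing for the gene, grey its other probe sets above the filter, and the dotted line the filter level of 6.19. PKM and VEGFA step up from resting to Pam3CSK4 and stay level, BHLHE40 peaks at 12 h with 10.09, and NDRG1 and PDK1 dip at 12 h to 9.18 and 7.24.

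HIF binds short DNA elements with the core ACGTG or GCGTG. Promoter sequence of RefSeq (GRCh38.p14) was matched by symbol for 28 of the 32 genes, all but SLC2A3, VEGFA, NDRG1 and BNIP3L, and the 250 bases before each annotated start were searched on both strands. Either core stood in 31 of the 45 start-site windows of these genes, 68.9%, and in 43.2% of all 35116 windows of that length; windows of a gene with several starts can overlap. ACGTG alone was in 46.7% against 18.5% of all windows, GCGTG in 37.8% against 32.2%, and the E-box CACGTG, which holds ACGTG on both strands and is a site of BHLHE40 itself, in 20.0% against 6.34%. The genes were listed partly as HIF targets, so this is a description of the list.

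The windows of 4 genes, chosen after their values were seen, are shown: BHLHE40 and ANKRD37 were highest at 12 h, PKM was higher with Pam3CSK4 on both probe sets, and LDHA hardly differed. Capitals mark matches to ACGTG or GCGTG on either strand, read 5′ to 3′ along the gene.
BHLHE40, chr3:4979187-4979436, plus strand: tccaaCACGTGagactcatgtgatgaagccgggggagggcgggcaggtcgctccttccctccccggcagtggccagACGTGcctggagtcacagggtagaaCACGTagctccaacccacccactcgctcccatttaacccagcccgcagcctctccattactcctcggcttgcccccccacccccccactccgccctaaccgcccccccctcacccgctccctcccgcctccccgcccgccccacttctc
ANKRD37, chr4:185396591-185396840, plus strand: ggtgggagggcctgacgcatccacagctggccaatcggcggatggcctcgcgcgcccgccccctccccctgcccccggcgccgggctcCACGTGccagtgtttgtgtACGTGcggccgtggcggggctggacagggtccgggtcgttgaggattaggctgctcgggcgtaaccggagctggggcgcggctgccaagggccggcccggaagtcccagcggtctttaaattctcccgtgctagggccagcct
LDHA, chr11:18394313-18394562, plus strand: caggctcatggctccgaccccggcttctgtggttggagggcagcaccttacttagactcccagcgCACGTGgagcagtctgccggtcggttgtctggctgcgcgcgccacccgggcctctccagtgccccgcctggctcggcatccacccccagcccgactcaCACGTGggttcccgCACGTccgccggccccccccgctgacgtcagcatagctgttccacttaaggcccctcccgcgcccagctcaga
PKM, chr15:72231191-72231440, minus strand: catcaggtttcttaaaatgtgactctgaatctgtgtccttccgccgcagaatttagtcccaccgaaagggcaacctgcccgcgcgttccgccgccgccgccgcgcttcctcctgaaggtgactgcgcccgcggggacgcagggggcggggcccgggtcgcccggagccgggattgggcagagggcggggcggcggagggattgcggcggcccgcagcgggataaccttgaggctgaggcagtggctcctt

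Matches in BHLHE40 stood at 3 separate places, in ANKRD37 at 2 and in LDHA at 3, while the PKM window held none. LDHA is shown for the window with most matches of its 2 start sites. Its values were 13.80 log2 in resting cells, 13.76 with Pam3CSK4, 13.62 after 12 h and 13.81 after 24 h, which lie close together.

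Co-culture for 12 h was compared with Pam3CSK4 alone. Since the length of the Pam3CSK4 treatment is not given, time in culture and contact with the particles cannot be told apart here or at 24 h. BHLHE40 was the 1 gene of the 29 past 2-fold upward, and 0 were past it downward; the shares of all genes were 0.41% upward and 0.35% downward. By size the next were NDRG1, at -0.86 log2 or 1.82-fold lower, PDK1 at -0.52, ADM at 0.52, ANKRD37 at 0.46, BNIP3L at -0.45 and BNIP3 at -0.44. BNIP3L stood at 0.09 on its other probe set, so its direction was not settled, while BNIP3 was at -0.44 and -0.40 on its 2 probe sets.

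Of the 18 measured genes from glucose transport to lactate, 15 were below their Pam3CSK4 value at 12 h, against 58.7% of all genes. When the arrays were normalized again by cyclic loess, 12 of the 18 were below 0, against 49.9% of all genes. The median as deposited was -0.16 log2, against -0.05 for all genes. PFKP stood at -0.43, SLC2A1 at -0.41, GPI at -0.35, TPI1 at -0.32, ALDOC at -0.31 and HK1 at -0.23. All 6 measured enzymes from triose phosphate to lactate were below 0, between -0.22 for PKM and -0.04 for ENO1, on the probe sets standing for them. On other probe sets PKM was at 0.07, ENO1 at 0.19, TPI1 at 0.09 and the transporter SLC2A3 at 0.16, so the sign of these 4 was not settled. PFKFB3 at 0.34, PFKL at 0.29 and HK2 at 0.14 were the 3 above 0. PFKL was at -0.10 and HK2 at -0.55 and -0.43 on other probe sets, so of these PFKFB3, with a single probe set, had no probe set of the other sign.

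At 12 h, 7 of the 15 genes read by several probe sets kept a single sign over them. The median range over probe sets was 0.31 log2, and 13 of the 29 differences were larger than that in size. The 12 h array also had wider 3' to 5' gaps of GAPDH and ACTB than the Pam3CSK4 array, and markers of other cells moved with it. Of 9 platelet and megakaryocyte markers, 8 had a probe set and 5 reached the filter level on any array, and their summed linear signal was 691 in resting cells, 563 after Pam3CSK4, 707 after 12 h and 603 after 24 h. PF4, PPBP and TUBB1, defining genes of platelets, stayed under the filter level on every array. Of the 5 that reached it, TREML1 was at 0.54 log2 at 12 h against Pam3CSK4, SELP at 0.51, GP1BA at 0.38 and GP9 at 0.36. ITGA2B was at -0.04. For 4 of the 5 the 12 h value was above both the Pam3CSK4 and the 24 h value, against 33.5% of all genes. Erythroid markers, 7 of 9 with a probe set and 3 above the filter, summed to 641, 691, 815 and 825. HBE1, the embryonic epsilon globin, was at 5.42, 5.45, 6.30 and 7.50 log2, under the filter level on the arrays without particles. Against Pam3CSK4, the globin gene HBB was at 0.40 at 12 h and 0.01 at 24 h, and the erythropoietin receptor gene EPOR at 0.06 and 0.03. Over probe sets above the filter HBB ran from -0.005 to 0.44 at 12 h and from -0.15 to 0.01 at 24 h. EPOR ran from -0.26 to 0.06 at 12 h, so the sign of both at 12 h was not settled. HBD, ALAS2, KLF1 and SLC4A1, under the filter level on every array, were above 0 at 12 h and below 0 at 24 h. Fibroblast and endothelial markers, 7 of 7 with a probe set and 4 above the filter, summed to 2926, 3164, 4496 and 3285, and PECAM1 among them, which myeloid cells also express, differed by 0.56 log2 at 12 h. Without PECAM1 the other 6 summed to 467, 435, 483 and 436, so PECAM1 carried most of that sum. COL1A1, a collagen gene among the 6, was summed on a probe set at 0.11 log2 at 12 h against Pam3CSK4. Over its 3 probe sets above the filter COL1A1 ran from 0.11 to 1.97, so its size at 12 h was not settled. Lymphocyte markers, 6 of 7 with a probe set and 4 above the filter, summed to 472, 458, 506 and 469. Of the 7 monocyte markers, 4 were below 0 against Pam3CSK4: CD14 at -1.18 log2, ITGAM at -0.66, LYZ at -0.40 and SPI1 at -0.12. The 3 above 0 were CYBB at 0.82, FCGR2A at 0.40 and CSF1R at 0.33. ITGAM was at 0.10 on its other probe set, so its sign was not settled. The part of RNA integrity, of other cells' RNA and of these monocyte genes in the 12 h differences was not tested.

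After 24 h with the particles the genes lay near their Pam3CSK4 values. Of the 29, 0 passed 2-fold upward and 0 downward, against 0.0298% and 0% of all genes. Differences ran from -0.22 for PKM to 0.30 for PFKFB3, with a median of -0.0028 against -0.0062 for all genes. PFKFB3, whose product pushes flux through phosphofructokinase, was at 8.31 log2 in resting cells, 8.44 with Pam3CSK4, 8.78 after 12 h and 8.74 after 24 h. Both co-culture arrays were therefore above the Pam3CSK4 array, which both comparisons share. PDK1 at 0.27 and BHLHE40 at 0.24 came next, and BHLHE40 was at -0.13 on its other probe set. HBE1 was 2.05 log2 above Pam3CSK4 at 24 h and 0.85 at 12 h, and its part in the members' differences was not tested.

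**Figure D4:**
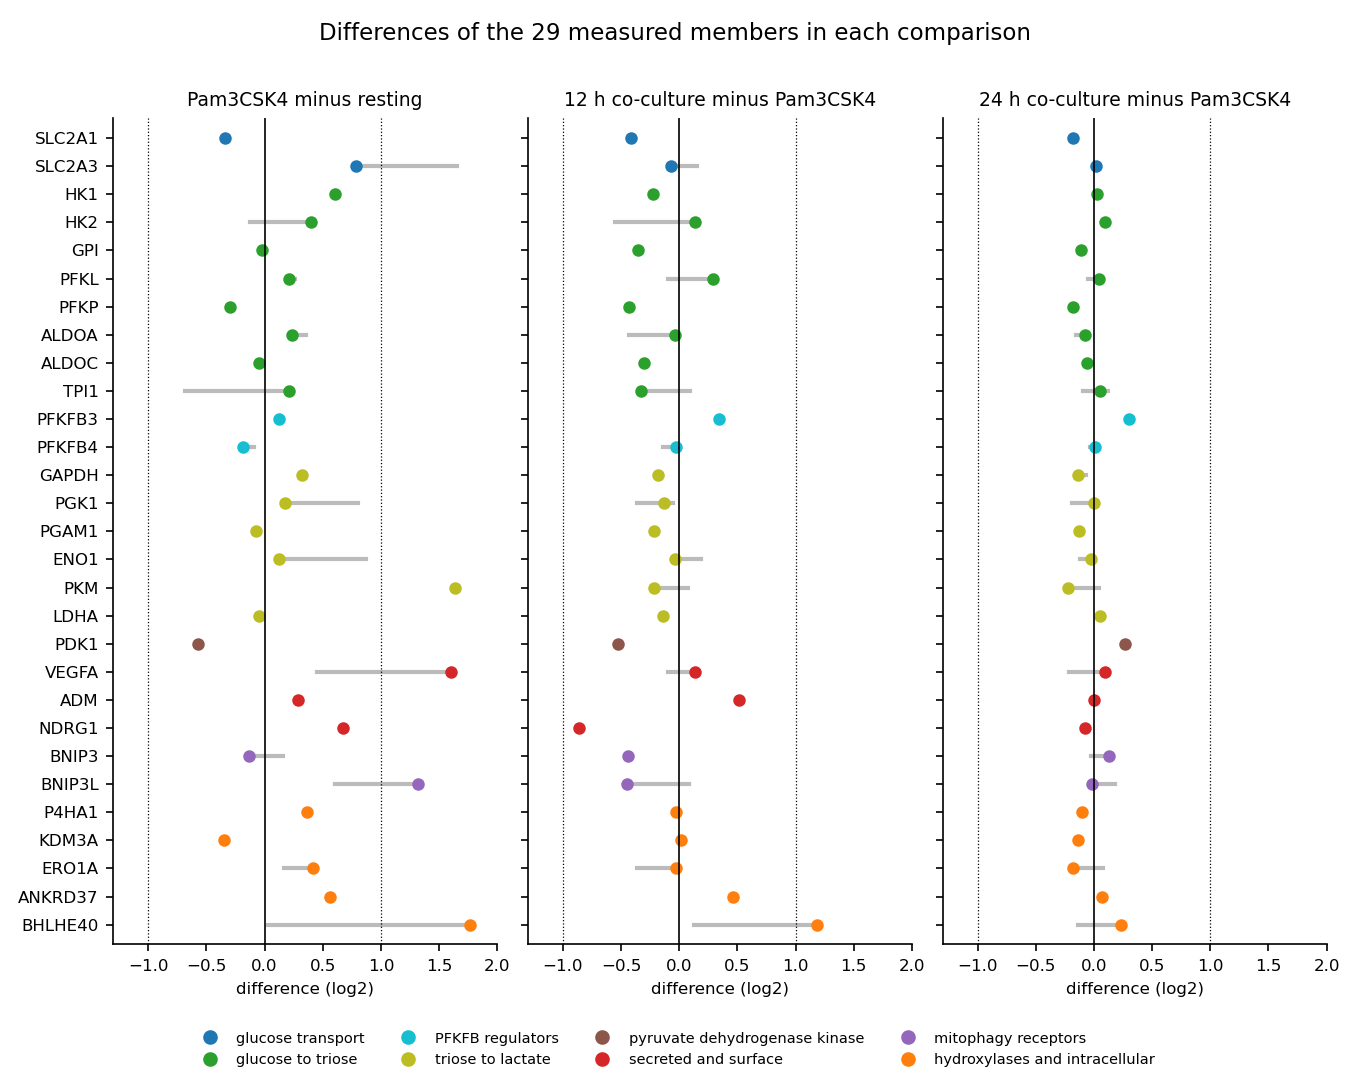
Log2 difference of each of the 29 measured genes (rows, coloured by role) in 3 comparisons; points are the probe set standing for the gene, grey bars the range over its probe sets above the filter, and dotted lines mark 2-fold. With Pam3CSK4 4 points lie beyond the right dotted line, at 12 h BHLHE40 alone does, and at 24 h all points lie between -0.22 and 0.30.

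Between the co-culture arrays, 0 of the 29 passed 2-fold upward from 12 h to 24 h and 0 downward, against 0.343% and 0.224% of all genes. BHLHE40 came closest, at -0.95 log2, followed by PDK1 at 0.80, NDRG1 at 0.79, BNIP3 at 0.57 and ADM at -0.52. BHLHE40 reached -1.02, past 2-fold, with cyclic loess. For 17 of the 29 genes the 12 h value was below both the Pam3CSK4 and the 24 h value, and for 8 it was above both. Over all genes these shares were 50.1% and 33.5%, so the count for the 29, 58.6%, lay near that of the array as a whole. Within the glycolytic chain 13 of 18 were lowest at 12 h, GAPDH, PGK1, PGAM1, ENO1 and LDHA among them. For ENO1, TPI1 and SLC2A3, all in the 13, the sign against Pam3CSK4 at 12 h was not settled over probe sets.

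The regulators of HIF itself were described from a list of 13 genes, of which 11 were measured. With Pam3CSK4, 0 were at least 2-fold higher and 1 was lower, against 4.14% and 1.71% of all genes. The lower gene was CITED2, a competitor of HIF-1α for its coactivators, which went from 11.24 to 10.17 log2. CITED2 ran from -1.07 to -0.17 over its probe sets. At 12 h against Pam3CSK4 CITED2 was at -0.78, and ran from -1.07 to 0.16 over its probe sets. HIF1A, the gene of HIF-1α, was at 11.55, 11.97, 12.14 and 11.96 log2 on the resting, Pam3CSK4, 12 h and 24 h arrays, while EPAS1, the gene of HIF-2α, was at 9.67, 9.01, 9.56 and 9.05. HIF1A and EPAS1 thus differed in opposite directions with Pam3CSK4, by 0.43 and -0.66. ARNT, the shared partner of both, was at 9.66, 9.35, 8.35 and 9.29, with a 12 h difference of -0.996 on this probe set, just under 2-fold, and up to 0.15 on others. EGLN1, the main HIF hydroxylase gene, differed by -0.50 with Pam3CSK4 and VHL by -0.05. At 12 h and 24 h, 0 of the 11 were at least 2-fold different on the probe sets standing for them. The shares of all genes were 0.41% upward and 0.35% downward at 12 h, and 0.0298% and 0% at 24 h.

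Of 34 other HIF targets listed, 28 were measured. With Pam3CSK4, 2 were at least 2-fold higher and 2 lower, against 4.14% and 1.71% of all genes, with a median of -0.09 against -0.05. MAFF, a small partner protein of stress transcription factors, went from 5.57 to 8.07 log2, from a resting value under the filter level, with 0.23 on its other probe set. TMEM45A, a membrane protein gene, differed by 1.86. VLDLR, a lipoprotein receptor gene, stood at -1.97 and AK4, a mitochondrial adenylate kinase gene, at -1.61. AK4 was between -1.61 and -0.99 on its 4 probe sets above the filter, and VLDLR had a single probe set above the filter. At 12 h, 0 of the 28 were at least 2-fold different from Pam3CSK4 on the probe sets standing for them, against 0.41% higher and 0.35% lower of all genes. WSB1 was at -0.04 on that probe set and reached -1.99 on another above the filter. Of the 28, 19 were below 0, against 58.7% of all genes. Between the co-culture arrays CXCR4, a chemokine receptor gene, was 1.01 log2 higher at 24 h, and 0.44 on its lowest probe set. On the probe sets standing for the genes, CXCR4 was the 1 of the 28 past 2-fold upward there, against 0.343% of all genes. WSB1 was at 0.12 on that measure and reached 1.94 on another probe set.

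Among 26 other glycolytic isozymes and transporters, 15 were measured. SLC2A6, which encodes a lysosomal sugar transporter of the GLUT family, was at 9.32 log2 in resting cells, 12.33 with Pam3CSK4, 12.50 after 12 h and 12.31 after 24 h. Its difference of 3.01 log2 with Pam3CSK4 was the 1 of the 15 past 2-fold, against 4.14% of all genes at least 2-fold higher. That difference was larger than that of any of the 29 genes above. In the pentose phosphate pathway, which branches from glycolysis to make NADPH, 7 of 8 genes were measured. With Pam3CSK4, 1 of them was at least 2-fold higher, against the same 4.14% of all genes. That gene was PGD, the phosphogluconate dehydrogenase, at 1.66 on its higher probe set and 0.05 on its other. At 12 h and 24 h, 0 genes of these lists were at least 2-fold different from Pam3CSK4. The shares of all genes were 0.41% higher and 0.35% lower at 12 h, and 0.0298% and 0% at 24 h.

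The tricarboxylic acid cycle burns pyruvate in mitochondria. Of its 15 measured genes, 14 were below their Pam3CSK4 value at 12 h, against 58.7% of all genes, and 11 of 15 with cyclic loess, against 49.9%. Their median was -0.26 log2, against -0.05 for all genes, with a range of -0.54 to 0.01. On other probe sets IDH2 was at 0.21, SDHC at up to 0.25 and SDHD at 0.27, so their sign was not settled. The count below 0 was 12 of 15 with averaged probe sets and 12 of 15 at the smallest difference over probe sets. Of 11 measured genes of pyruvate dehydrogenase, its kinases and the pyruvate carrier, 9 were below 0, against the same 58.7%, with a median of -0.29. On other probe sets DLD, counted below 0, reached 0.01, and PDK3, counted above 0, reached -0.21. DLAT, the acetyltransferase of the complex, was at 8.92, 8.60, 8.02 and 8.78 log2 on the resting, Pam3CSK4, 12 h and 24 h arrays, and MPC1, a carrier subunit, at 12.14, 12.83, 12.36 and 12.88. DLAT and MPC1, named after their values were seen, were lower at 12 h than with Pam3CSK4 or at 24 h. With Pam3CSK4 and at 24 h, 0 genes of either list were at least 2-fold different on the probe sets standing for them. SDHC ran from -0.04 to 1.44 with Pam3CSK4 over its 7 probe sets above the filter. The shares of all genes were 4.14% higher and 1.71% lower with Pam3CSK4, and 0.0298% and 0% at 24 h.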

How the data were processed

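Biotin-labelled RNA of 4 THP-1 cultures was hybridised to Affymetrix arrays, per the labels' protocols. The deposited log2 values were made by the authors with RMA in affy 1.28.1, per the submitters' processing notes. RMA forces the arrays to a nearly common distribution, so a global change cannot be seen. RMA can also compress differences between arrays. The deposited table holds 54675 probe sets between 2.54 and 15.22 log2. Signal over background was judged by level alone.

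Samples were grouped by source label. Titles of the co-culture arrays carry other numbers than their descriptions, and the descriptions' hours were used. Probe sets naming 1 gene in a platform annotation were used, control probe sets apart, and the RefSeq table of GRCh38.p14 updated 0 symbols. The probe set of highest mean stood for a gene, which entered a comparison at 6.19 log2 or more on at least 1 array. Differences were counted at 1 log2. Values on all arrays are printed for members differing by 0.5 log2 or more, and other listed genes are named past 2-fold. Of the HIF regulators, HIF1A, EPAS1, ARNT, VHL and EGLN1 are named whatever their value. With 1 array per condition no test was made. Members and lists were chosen with earlier results of these data known.

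The counts and medians of the 29 genes were repeated, with counts at 1.5-fold and 3-fold too, unfiltered or filtered at the 75th percentile, with averaged probe sets, without _x_at and _s_at probe sets, at the smallest difference over probe sets, and after cyclic loess with 3 iterations (R 4.3.3, limma 3.58.1). The choice of probe sets and filter without the resting array was added after the data were seen, as were repeats of the glycolysis and tricarboxylic acid cycle genes below 0 and a marker sum without PECAM1. Other lists were not repeated. Python 3.11.15, numpy 2.4.6, pandas 2.3.3 and matplotlib 3.10.9 were used, and the counting was tested on simulated arrays.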

Additional observations from a re-analysis of the deposited data

Results flagged for a closer look

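For 8 of the 29 genes the differences from Pam3CSK4 had opposite signs at 12 h and 24 h, which was not tested, and most were small. The 24 h minus 12 h difference was 0.80 log2 for PDK1, 0.57 for BNIP3, 0.37 for TPI1, 0.26 for HK1, 0.19 for LDHA, 0.086 for SLC2A3, 0.036 for PFKFB4 and -0.16 for KDM3A. With 1 array per condition, 0 groups held enough samples to look for an outlying sample.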

How the results depend on the processing

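The count of genes at least 2-fold higher with Pam3CSK4, 4, was 2 with averaged probe sets, 1 without _x_at and _s_at probe sets, 1 at the smallest difference over probe sets and 7 at 1.5-fold; PKM passed in each of these settings. The count of 1 at 12 h, BHLHE40, was 0 with averaged probe sets, without _x_at and _s_at probe sets, at the smallest difference and at 3-fold. At 1.5-fold, 1 gene was lower at 12 h than with Pam3CSK4, and 2 were higher and 1 lower at 24 h than at 12 h; cyclic loess also gave 1 lower at 24 h than at 12 h. Without _x_at and _s_at probe sets, 14 genes were left to count. In that setting 6 of 8 glycolysis genes and 6 of 8 tricarboxylic acid cycle genes were below 0 at 12 h, with fewer genes left. The median difference over the genes kept its sign in every alternative run with Pam3CSK4 (0.16 to 0.31) and at 12 h (-0.16 to -0.04). It changed sign around 0 at 24 h, and between the co-culture arrays it was -0.0051 with cyclic loess. No paired analysis was possible because each group has 1 array. Precision is limited by the number of arrays, 4 with no replicates.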
